A study of Mus musculus with 3 samples.

Results

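The genes described here make cholesterol, sense it and move it in NMuMG, a cell line of mouse mammary gland epithelium. They are a list of 33 genes chosen by function, and a gene was measured where at least one array probe set was annotated to its symbol alone, the probe set with the highest mean standing for the gene. Of the 33, 30 were measured, out of 19935 genes in all, and Acat2, Nr1h2 and Soat1 were dropped. Expression was read on 3 Affymetrix arrays as log2 RMA values, in which a step of 1 is a 2-fold difference in probe set intensity. The MAFK group (n = 2) is a pair of stable clones, clone 4 and clone 10, of NMuMG cells carrying the transgene pCAGIP-FLAG-MafK, which encodes FLAG-tagged MAFK, a small MAF transcription factor that lacks an activation domain of its own. The mock group (n = 1) is NMuMG cells carrying the vector pCAGIP without the insert. All cells grew in the same medium with fetal calf serum and puromycin. Each MAFK array is 1 clone and mock is a single array that the labels do not call a clone, so clonal differences and MAFK cannot be told apart, and the labels do not say whether cultures were separate. In bulk RNA, fewer cells with a transcript and less RNA per cell cannot be told apart.

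Cells make cholesterol from acetyl-CoA through mevalonate, farnesyl diphosphate and squalene to lanosterol, whose ring is then trimmed to cholesterol. When sterols in the endoplasmic reticulum run low, SCAP carries the SREBP factors to the Golgi for cleavage, and their released part switches on the synthesis genes, while INSIG proteins hold SCAP back when sterols are plentiful. The nuclear receptors LXR act at the other end: they are activated by oxysterols and switch on genes of cholesterol export. Serum in the medium supplies lipoprotein cholesterol as a further source.

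The promoters shown here belong to the 3 genes that lay furthest below mock (Hsd17b7, Cyp51, Nr1h3), the gene that lay furthest above it (Abca1), and Hmgcs1, whose window was the only one among the members' to hold the sterol regulatory element as searched. They are RefSeq sequences of build GRCm38.p6, from 250 bases before the annotated start to 50 after it, 5′ to 3′ along the gene. Capitals mark matches on either strand to any of 6 motifs: the sterol regulatory element TCACNCCAC of SREBP, the NF-Y box CCAAT, the Sp1 box GGGCGG, the E-box CACGTG, the antioxidant response core TGACNNNGC and the MAF core site TGCTGA, the last 2 of which can share letters.
Hsd17b7, chr1:169969156-169969455, minus strand: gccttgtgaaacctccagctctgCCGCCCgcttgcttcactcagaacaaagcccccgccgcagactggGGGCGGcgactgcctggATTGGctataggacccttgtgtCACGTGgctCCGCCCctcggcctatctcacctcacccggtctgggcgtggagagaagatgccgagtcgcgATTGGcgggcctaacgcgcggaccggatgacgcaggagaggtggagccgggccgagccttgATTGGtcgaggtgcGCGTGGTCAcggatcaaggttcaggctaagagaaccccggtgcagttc
Cyp51, chr5:4104648-4104947, minus strand: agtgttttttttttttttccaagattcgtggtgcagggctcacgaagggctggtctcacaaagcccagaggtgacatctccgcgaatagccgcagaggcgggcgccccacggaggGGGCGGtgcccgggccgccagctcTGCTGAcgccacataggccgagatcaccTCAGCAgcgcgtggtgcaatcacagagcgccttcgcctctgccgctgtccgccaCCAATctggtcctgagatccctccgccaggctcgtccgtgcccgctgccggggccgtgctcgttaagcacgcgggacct
Nr1h3, chr2:91195067-91195366, minus strand: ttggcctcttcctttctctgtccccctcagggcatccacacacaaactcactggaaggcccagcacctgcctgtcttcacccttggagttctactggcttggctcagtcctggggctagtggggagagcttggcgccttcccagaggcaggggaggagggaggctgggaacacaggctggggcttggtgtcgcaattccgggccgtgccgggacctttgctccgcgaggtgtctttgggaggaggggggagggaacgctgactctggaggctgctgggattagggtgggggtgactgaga
Abca1, chr4:53159846-53160145, minus strand: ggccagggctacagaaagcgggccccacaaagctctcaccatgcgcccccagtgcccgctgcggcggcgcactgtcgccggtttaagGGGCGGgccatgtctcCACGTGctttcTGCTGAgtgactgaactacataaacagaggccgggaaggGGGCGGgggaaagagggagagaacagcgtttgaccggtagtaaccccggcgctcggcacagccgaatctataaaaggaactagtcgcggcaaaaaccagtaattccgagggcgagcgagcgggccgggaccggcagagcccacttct
Hmgcs1, chr13:119690101-119690400, plus strand: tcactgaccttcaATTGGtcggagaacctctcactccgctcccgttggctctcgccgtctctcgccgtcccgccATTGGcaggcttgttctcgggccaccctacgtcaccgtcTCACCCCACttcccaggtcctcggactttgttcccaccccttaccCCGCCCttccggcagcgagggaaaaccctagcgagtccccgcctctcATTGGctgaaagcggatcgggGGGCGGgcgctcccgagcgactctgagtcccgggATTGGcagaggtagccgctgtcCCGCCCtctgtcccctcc

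The pathway as a whole stayed close to mock, with a few members lower and one higher. Of the 30 members, 2 were at least 2-fold lower than mock in both clones and 0 exceeded it by as much, beside 1.81% of all genes lower and 1.19% higher by the same rule. The 2 were Nr1h3, the gene of LXR alpha, and Hsd17b7, a ketosteroid reductase of the late pathway. At 1.5-fold in both clones 3 members were lower, Cyp51 joining them (3.63% of all genes), and 1 was higher, Abca1 (2.54% of all genes). Of the 10672 genes whose mean reached the median of all probe sets, 2.6% were lower and 2.08% higher at 2-fold. At 1.5-fold those shares were 5.35% and 4.26%. The members' differences ran from -1.17 to 0.80 on the log2 scale. Their median was 0 in clone 4 and -0.01 in clone 10, and that of all genes was 0 in both.

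More members lay below mock than above it. In both clones 13 of 30 were below (43.3%, against 17.9% of all genes) and 5 were above (16.7%, against 33.7% of all genes), whatever the size of the difference. Because the members are mostly well-expressed genes, the same shares were taken over the 10672 genes whose mean reached the median of all probe sets: 28.7% of those lay below mock and 33.2% above, and of the 29 members among them 44.8% lay below and 17.2% above. Another 6 members (20%) had the same value on all 3 arrays, as did 34.3% of all genes. At or above the median level those shares were 17.2% of members and 23% of genes. Equal values come easily from median polish, the step of RMA that summarises the probes of a set, when arrays are few, so they are no measure of how steady a gene is. These counts describe the list and were not tested.

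In limma, a moderated linear model fitted over all genes with p-values adjusted over all of them, 1 member passed at an adjusted p under 0.05, lower with MAFK, and 0 passed higher. Of all genes 0.762% passed lower and 0.401% higher. At an unadjusted p under 0.05 the fit took 8 members. Below mock were 7 of them (Nr1h3, Hsd17b7, Cyp51, Fdft1, Nsdhl, Sqle and Npc1), beside 8.26% of all genes, and above it 1 (Abca1), beside 9.2% of all genes.

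**Figure D1:**
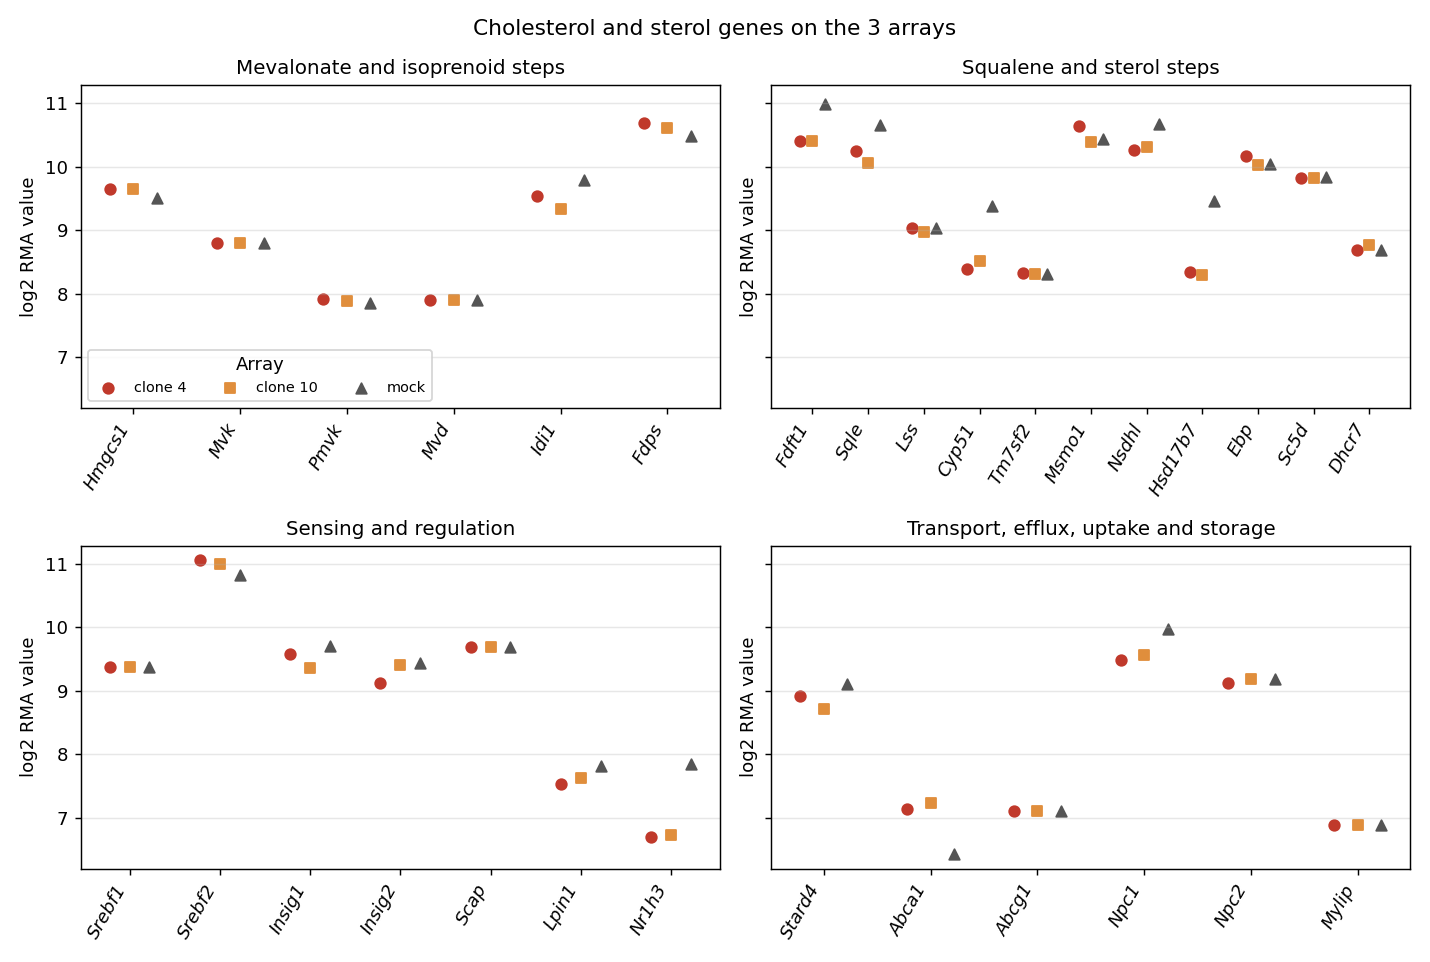
Log2 RMA value (vertical axis) of each of the 30 measured genes on the arrays of clone 4 (circles), clone 10 (squares) and mock (triangles), in 4 panels by role; each point is 1 array. Nr1h3, Hsd17b7 and Cyp51 show the widest gaps with both clones under mock, and Abca1 the widest with both clones over it.

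Of the early steps, up to farnesyl diphosphate, the first 4 described here were nearly level between MAFK clones and mock. Hmgcs1, the synthase that makes HMG-CoA, read 9.64 in clone 4 and 9.64 in clone 10, against 9.51 in mock. The mevalonate kinase gene Mvk and the decarboxylase gene Mvd read the same on all 3 arrays, at 8.80 and 7.89. Pmvk, which encodes phosphomevalonate kinase, read 7.91 in clone 4 and 7.88 in clone 10, against 7.85 in mock. These 4 genes thus differed from mock by at most 0.13 on the log2 scale.

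Idi1 and Fdps, the last enzymes before the pathway commits to sterols, had differences of opposite sign. Idi1, the isopentenyl diphosphate isomerase gene, read 9.53 in clone 4 and 9.34 in clone 10, against 9.79 in mock. A lower-reading probe set of Idi1 gave differences of -0.31 in clone 4 and -0.51 in clone 10, beside -0.26 and -0.46 for the one used. Fdps, the farnesyl diphosphate synthase gene, read 10.69 in clone 4 and 10.62 in clone 10, against 10.48 in mock. Neither passed limma (adjusted p = 0.319 for Idi1 and 0.460 for Fdps). Of the 6 measured genes of these steps, 1 lay below mock in both clones (16.7%) and 3 above (50%). Beside them, 17.9% of all genes lay below and 33.7% above, or 28.7% and 33.2% of those at or above the median level.

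From squalene onward several genes lay below mock and the rest were near it, and none passed limma in the reported fit. Of all genes 17.9% lay below mock in both clones and 33.7% above, or 28.7% and 33.2% of those at or above the median level. Of the 11 measured genes of this part, 6 lay below (54.5%), Sc5d with a difference of only -0.006, and 0 above. Their median was -0.01 in clone 4 and -0.08 in clone 10, and their mean, drawn down by Hsd17b7, Cyp51, Fdft1 and Sqle, was -0.29 and -0.33. Hsd17b7, which encodes the reductase that completes the removal of methyl groups from the sterol ring, read 8.34 in clone 4 and 8.29 in clone 10, against 9.46 in mock. Both clones were 2-fold or more under mock and within 0.05 of each other. The difference was -1.15 ± 0.073 (SE) on the log2 scale, or 2.22-fold lower, with a limma adjusted p of 0.0526, just short of the threshold. That p ran from 0.0259 to 0.0626 over the alternatives, passing with the prior taken from all genes (0.0259), with a second quantile normalization (0.0422) and with arrays centred on their medians (0.0486).

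Cyp51, the lanosterol demethylase gene, read 8.39 in clone 4 and 8.51 in clone 10, against 9.39 in mock. Clone 4 was at the 2-fold line and clone 10 inside it, with differences of -1.001 and -0.88. The mean difference was -0.94 ± 0.092 (SE), 1.92-fold lower, and did not pass limma (adjusted p = 0.0820; 0.0443 with the prior from all genes). The enzyme of Cyp51 acts on lanosterol and that of Hsd17b7 on a later product, and Msmo1 and Nsdhl encode enzymes that work between them.

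Those neighbours did not share the size of the difference. Nsdhl, a sterol dehydrogenase gene on the X chromosome, read 10.26 in clone 4 and 10.31 in clone 10, against 10.67 in mock (limma adjusted p = 0.168). Msmo1, the methylsterol monooxygenase gene, read 10.65 in clone 4 and 10.39 in clone 10, against 10.44 in mock, one clone above mock and the other below. So among these genes, which are not all those of that stretch of the pathway, the log2 differences varied. They were -0.94 for Cyp51, -1.15 for Hsd17b7, -0.38 for Nsdhl and 0.08 for Msmo1.

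Fdft1 and Sqle encode the enzymes that make squalene and oxidise it. Fdft1, the squalene synthase gene, read 10.40 in both clones, against 10.98 in mock, which is 1.498-fold lower and just short of the 1.5-fold line (limma adjusted p = 0.101; 0.0251 with the prior from all genes and 0.0413 with a second quantile normalization). Its other probe set gave -0.84 in clone 4 and -0.66 in clone 10. Fdft1 lies on chromosome 14, whose 359 genes at or above the median level had median differences of -0.29 in clone 4 and -0.12 in clone 10; the part of that shift in the Fdft1 value was not tested. Sqle, the squalene epoxidase gene, read 10.25 in clone 4 and 10.06 in clone 10, against 10.66 in mock (limma adjusted p = 0.205).

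The remaining sterol enzymes were level with mock. Lss, the lanosterol synthase gene, read 9.04 in clone 4 and 8.96 in clone 10, against 9.04 in mock. Tm7sf2, a sterol reductase gene, read 8.32 in clone 4 and 8.31 in clone 10, against 8.31 in mock. Ebp, the sterol isomerase gene, read 10.18 in clone 4 and 10.03 in clone 10, against 10.05 in mock. These 3 had limma adjusted p-values of 1.

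The enzymes of the final steps were likewise near mock. Sc5d, a sterol desaturase gene, read 9.82 in both clones, against 9.83 in mock. Dhcr7, whose enzyme reduces the last intermediate to cholesterol, read 8.69 in clone 4 and 8.76 in clone 10, against 8.69 in mock.

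**Figure D2:**
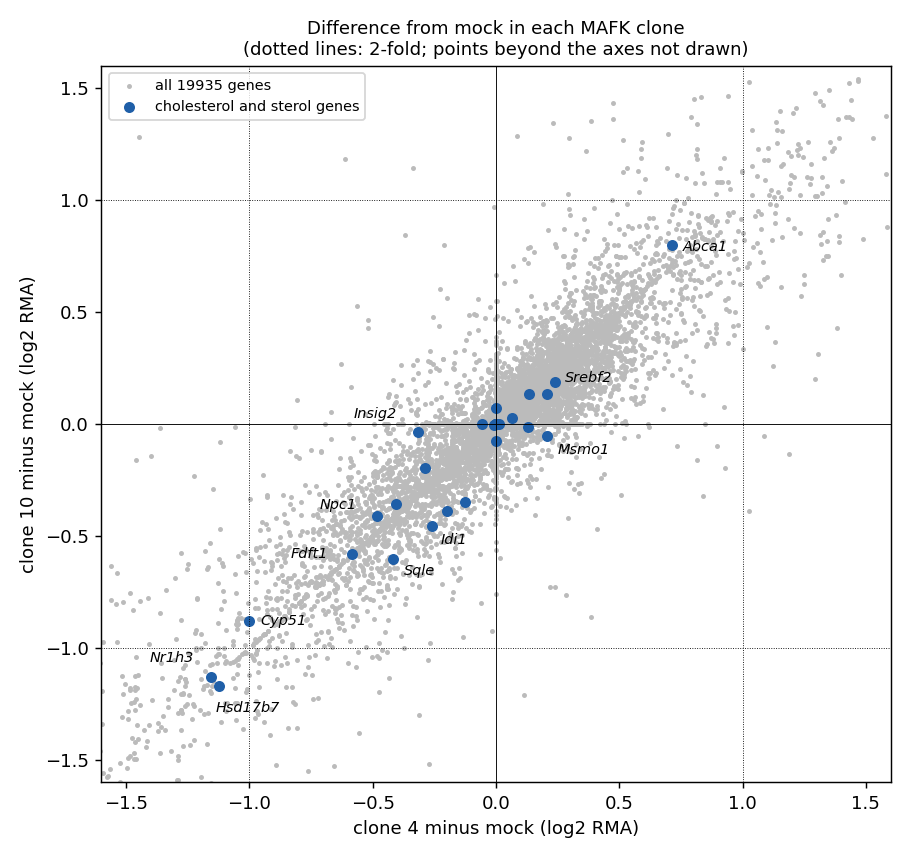
Difference from mock in clone 4 (horizontal) and clone 10 (vertical), in log2 RMA units, for all 19935 genes (grey) and the 30 cholesterol and sterol genes (blue); dotted lines mark 2-fold and points past the axes are not drawn. Nr1h3 and Hsd17b7 lie past 2-fold in both clones, Cyp51 lies at the line in clone 4, and Abca1 is the blue point furthest to the upper right.

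Among the sensors and regulators, Srebf1, Srebf2 and Scap read near mock and the LXR gene Nr1h3 fell. Nr1h3 read 6.69 in clone 4 and 6.72 in clone 10, against 7.85 in mock. The clones were within 0.03 of each other and both more than 2-fold under mock. The difference was -1.14 ± 0.070 (SE), 2.21-fold lower, with a limma adjusted p of 0.0499, at the very edge of the threshold. The clones' values lie below the array medians of 6.89 to 6.93 and no detection calls were used, so whether they stand above background was not shown and the fold holds on the RMA scale alone. The p ran from 0.0253 to 0.0605 over the alternatives, and did not pass with low genes left out (0.0605) or with probe sets averaged per gene (0.0547).

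Srebf1, which encodes SREBP-1, read 9.38 on all 3 arrays, and Scap read 9.68 on all 3. Equal values such as these are no measure of how steady a gene is. Srebf2, whose product SREBP-2 mainly drives the cholesterol genes, read 11.06 in clone 4 and 11.005 in clone 10, against 10.82 in mock, a difference of 0.21 ± 0.074 (SE) that did not pass limma (adjusted p = 0.333). Transcript levels do not show how much SREBP was cleaved. None of these 3 genes was thus lower with MAFK.

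Insig1 and Insig2, the genes of the proteins that retain SCAP, and Lpin1 were slightly lower in value. Insig1, itself an SREBP target, read 9.58 in clone 4 and 9.36 in clone 10, against 9.71 in mock. Insig2 read 9.13 in clone 4 and 9.40 in clone 10, against 9.44 in mock. Its clones differed by 0.28, the widest gap between clones among the members, whose median gap was 0.05.

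Lpin1, a phosphatidate phosphatase gene whose product also restrains SREBP, read 7.53 in clone 4 and 7.62 in clone 10, against 7.82 in mock. None of Insig1, Insig2 and Lpin1 passed limma (adjusted p = 0.573, 0.902 and 0.325). Of the 7 measured regulators, 4 lay below mock in both clones (57.1%) and 1 above. The shares of all genes were 17.9% below and 33.7% above, or 28.7% and 33.2% of those at or above the median level.

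Transport genes lay on both sides of mock, with Abca1 on one side and the lysosomal exporter gene Npc1 on the other. Abca1, the pump that loads cholesterol onto apolipoprotein and a known LXR target, read 7.14 in clone 4 and 7.23 in clone 10, against 6.43 in mock. Both clones were over mock, by 0.71 and 0.80. The mean difference of 0.76 ± 0.081 (SE), 1.69-fold higher, did not pass limma (adjusted p = 0.0906; 0.0391 with the prior from all genes). The mock value of Abca1 lies below the array medians and was not shown to be above background. The fold of Abca1 therefore holds on the RMA scale alone. Abca1 and Nr1h3, target and regulator, thus had differences of opposite sign on that scale.

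Abcg1 and Mylip, also LXR targets in the list, showed no difference between the arrays. Abcg1, a second cholesterol exporter gene, read 7.11 on all 3 arrays. Mylip, which encodes a ligase that marks lipoprotein receptors for degradation, read 6.89 on all 3. Both values lie near the array medians, and equal values are no measure of how steady a gene is.

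Npc1 and Npc2 pass cholesterol out of the lysosome, and Stard4 carries it through the cytosol. Npc1 read 9.49 in clone 4 and 9.56 in clone 10, against 9.97 in mock, a difference of -0.45 ± 0.077 (SE) that did not pass limma (adjusted p = 0.153). Npc2 read 9.13 in clone 4 and 9.18 in clone 10, against 9.18 in mock. Stard4, an SREBP-2 target in mouse, read 8.91 in clone 4 and 8.72 in clone 10, against 9.11 in mock (limma adjusted p = 0.399). Npc1 and Stard4 were therefore the only transport members below mock in both clones, out of 6 measured (33.3%). The share below was 17.9% of all genes and 28.7% of those at or above the median level.

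Other genes of sterol metabolism, 32 measured of 40 listed, gave larger single differences than any member. Both directions were present: 2 genes exceeded mock by 2-fold or more in both clones, 2 lay as far under it (6.25% each way, beside 1.19% and 1.81% of all genes), and 2 passed limma, both higher (beside 0.401% of all genes). Scarb1, the receptor that takes up cholesterol from high-density lipoprotein, rose with MAFK: it read 10.01 in clone 4 and 9.80 in clone 10, against 6.69 in mock, a 9.27-fold difference with a limma adjusted p of 0.0344. Gramd1a and Gramd1b encode related proteins that bring cholesterol from the plasma membrane to the endoplasmic reticulum, and their differences had opposite signs.

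Gramd1a rose 3.48-fold, with 8.04 in clone 4 and 7.96 in clone 10, against 6.20 in mock (limma adjusted p = 0.0346). The mock values of Scarb1 and Gramd1a lie below the array medians and were likewise not shown to be above background, so both folds hold on the RMA scale alone. Gramd1b read 9.51 in clone 4 and 8.98 in clone 10, against 10.85 in mock, 3.04-fold lower without passing (limma adjusted p = 0.153). Lipa, the lysosomal lipase that frees cholesterol from its esters, read 9.96 in clone 4 and 9.99 in clone 10, against 11.06 in mock, 2.12-fold lower (limma adjusted p = 0.0539). Of these 3 genes Gramd1b had the widest gap between its clones.

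The next largest were the transporter gene Abca2 (differences of 1.05 in clone 4 and 0.93 in clone 10), the lipoprotein receptor gene Vldlr (0.88 and 0.83), the phospholipid transfer gene Pltp (-1.13 and -0.71) and Mbtps1 (0.59 and 0.71), whose protease makes the first cut of SREBP. None of these 4 passed limma. Over the 32 genes the median difference was 0 in both clones, and 7 had the same value on all arrays (21.9%). The share with equal values was 34.3% of all genes and 23% of those at or above the median level. Listed genes without a value are not analysed here.

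**Figure D3:**
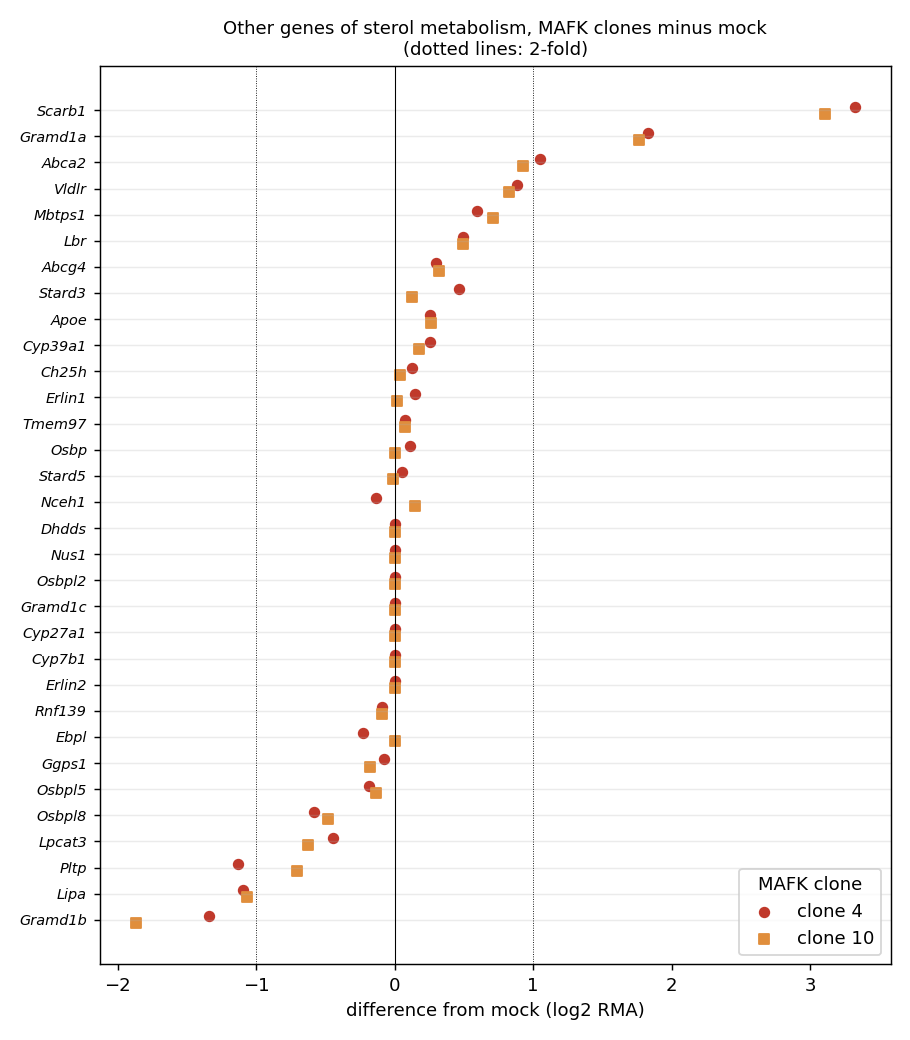
Difference from mock in clone 4 (circles) and clone 10 (squares), in log2 RMA units, for 32 other genes of sterol metabolism ordered by their mean; dotted lines mark 2-fold. Scarb1 and Gramd1a lie past 2-fold above mock in both clones, and Gramd1b and Lipa past 2-fold below it.

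The members' promoters shared the NF-Y box more than promoters at large. Of the measured members, 24 matched the promoter table by symbol, with 33 annotated starts between them, and CCAAT stood on either strand in 21 of the 33 windows (63.6%), against 37.4% of all 32851 windows of the same length. Among the synthesis enzymes it stood in 14 of 17 windows (82.4%), and in at least one window of each of the 14 genes, where 42.8% of genes at or above the median level had one. NF-Y is known to act beside SREBP at sterol genes. The box was in windows of genes near mock (Mvk, Mvd) and of those lower (Hsd17b7, Cyp51), so it did not separate them.

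The Sp1 box and the E-box were also more frequent in the members' windows than in all windows. The Sp1 box was in 75.8% of the members' windows, against 64.3% of windows of genes at or above the median level and 35.7% of all. The E-box was in 7 of 33 windows (21.2%, against 10.2% of windows of genes at or above the median level and 7.15% of all). The sterol regulatory element as spelled was in 1 of 33 windows (3.03%, against 1.24% of all), 137 bases before the start of Hmgcs1, whose level differed by 0.13. Looser forms of that element were not searched.

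Motifs linked to MAF factors had shares in the members' windows close to or below those of all windows. Against windows of genes at or above the median level, the antioxidant response core was less frequent and the MAF core site more frequent. The antioxidant response core, bound by CNC factors with a small MAF partner, was in 4 of 33 windows (12.1%, against 12.4% of all), among them that of Hsd17b7, where it begins just after the start. All 4 belong to synthesis enzymes, whose 17 windows thus hold it at 23.5%, above its share in either background. The MAF core site was in 6 of 33 windows (18.2%, against 14.8% of windows of genes at or above the median level and 19.5% of all). In the synthesis enzymes' windows its share was 11.8%, below both. These shares were not tested. Cyp51 holds it in both orientations, 111 and 83 bases before the start, and Abca1 holds it 136 bases before its start, with differences of opposite sign. The Nr1h3 window shown has no match to any of the 6 motifs. A match is a run of letters and no measure of binding.

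**Figure D4:**
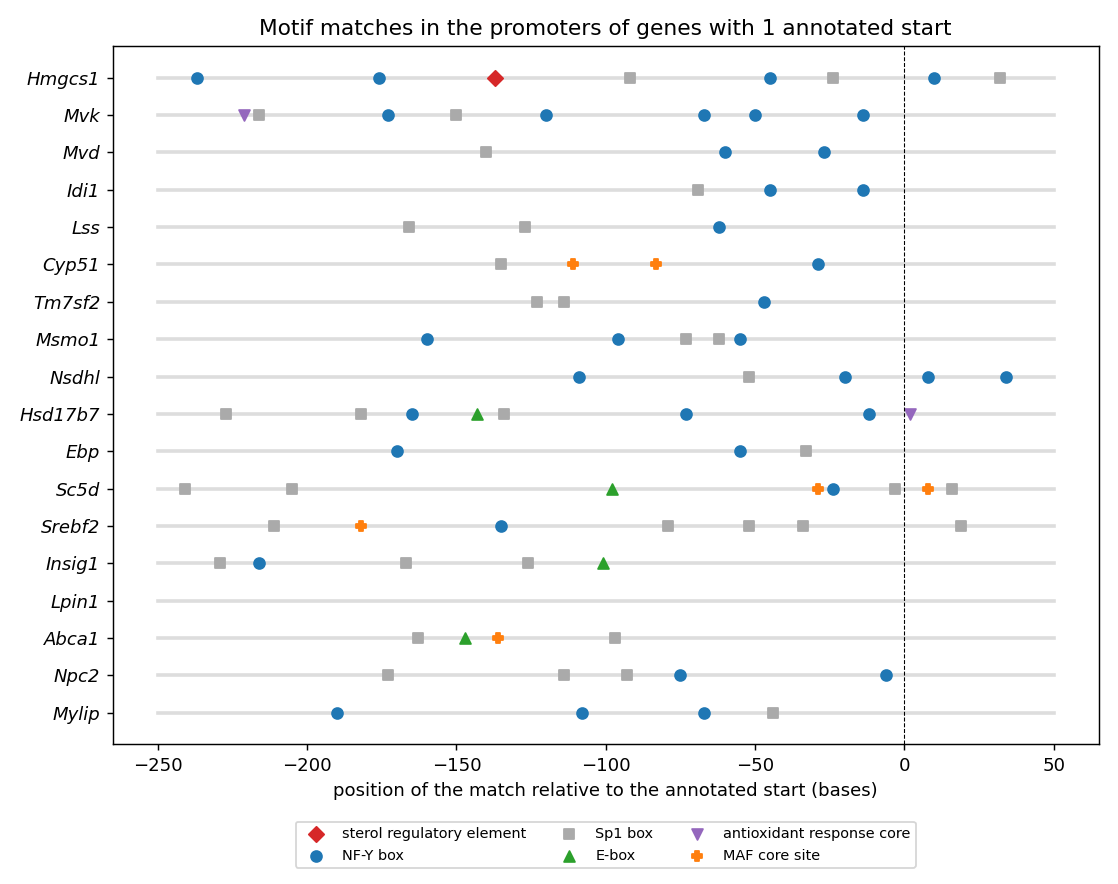
Motif matches (symbols by motif) by position in bases relative to the annotated start, for the 18 measured genes with 1 annotated start; grey lines are the windows searched. NF-Y boxes (blue circles) appear in every synthesis enzyme drawn, from Hmgcs1 to Sc5d, and the sterol regulatory element (red diamond) in Hmgcs1.

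Across the series, array medians were 6.92 in clone 4, 6.93 in clone 10 and 6.89 in mock, and precision is limited by the small number of arrays. The probe set of Mafk read 8.74 in clone 4 and 8.59 in clone 10, against 8.49 in mock (limma adjusted p = 0.612). Whether its probes match the transgene was not analysed, so it is no check of the labels. Of 10 epithelial markers, 4 (Krt8, Krt18, Krt19 and Cldn4) were at or above the median level on all arrays, and Epcam was not. Cdh1 read 6.85 in clone 4 and 6.64 in clone 10, against 11.35 in mock. Summed on the linear scale, the 10 epithelial markers reached 16737 in clone 4 and 17293 in clone 10, against 24208 in mock. Below mock in both clones were Cdh1, Krt8 (-0.49 in clone 4 and -0.36 in clone 10), Krt18 (-1.03 and -0.87) and Ocln. Krt19, Krt7, Cldn3 and Cldn4 lay above mock in both clones, so the lower sum is not shared by all the markers. Of 8 fibroblast markers 1 (Pdgfrb) was 2-fold higher in both clones and 1 (Dcn) lower. On the linear scale the fibroblast markers summed to 1870 in clone 4 and 2119 in clone 10, against 996 in mock, a gap carried by Pdgfrb: without it the other 7 summed to 880 in clone 4 and 855 in clone 10, against 886 in mock. That sum hides differences of opposite sign. Dcn (-2.12 in clone 4 and -1.82 in clone 10) and Pdgfra lay below mock in both clones. Col1a2 (0.85 and 0.58), Col1a1, Col3a1 and Thy1 lay above it in both, and Lum read the same on all arrays. The part of these markers in the sterol gene values was not tested. No endothelial or adipocyte marker of 5 each reached the median level on every array, and of 5 immune markers Cd68 did.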

How the data were processed

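RNA of NMuMG cells was measured on 3 Affymetrix arrays, 2 of MAFK clones and 1 of mock. The deposited values are log2 probe set intensities that the authors made with RMA, per the submitters' processing notes, which give no version. The genome build is not given in the sources used here. Values ran from 4.40 to 14.3. Of 28815 probe sets, 21780 had 1 symbol by the platform annotation, 1605 several and 5430 none; symbols were updated by Entrez identifier (21689 matched) through a table of assembly GRCm38.p6.

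Differences are MAFK minus mock on the log2 scale, and folds are powers of 2 of them. The test was limma 3.58.1 in R 4.3.3, two-sided, Benjamini-Hochberg adjusted over 19935 genes. It has 1 residual degree of freedom, which comes from the difference between the clones, and takes mock to vary like them. The p-values therefore reflect the spread between clones, in which clone, culture and array cannot be told apart. Because 55.5% of genes were tied between the clones (within 1e-08), the prior (1.93 degrees of freedom, SD 0.0694) came from the 8873 untied genes, and tied genes kept the smallest SE, 0.069. "Rose" and "fell" are used of genes past this test and at least 2-fold apart in both clones. The fit was tested on simulated data. Members and lists were chosen with earlier results of these data known. All members are named; of the other pathway genes, those 2-fold apart in both clones and the next 4 by the smaller clone difference. Alternatives covered prior, scaling, filter, probe set choice, thresholds, chromosomes and clones.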

Additional observations from a re-analysis of the deposited data

How the results depend on the processing

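The count of members at least 2-fold lower stayed between 2 and 3 under every alternative tried, also with either clone left out. The count at least 2-fold higher stayed at 0 except at 1.5-fold, where it was 1. The number past limma was less steady. Members lower in limma numbered 1 as reported, 7 at an unadjusted p, 5 with the prior from all genes, 2 with arrays centred on their medians, 3 with a second quantile normalization, and 0 both with low genes left out and with probe sets averaged per gene. Members higher in limma numbered 1 at an unadjusted p and 2 with the prior from all genes, Abca1 and Hmgcs1. With the prior from all genes limma took 2240 genes higher and 1313 lower, against 80 and 152 in the reported fit. A second quantile normalization breaks ties by small amounts, and limma then took 1132 genes higher and 790 lower. With an intensity trend it took 120 higher and 245 lower, and with low genes left out 51 of 10672 higher and 68 lower. The median difference over the members was -0.003 as reported and -0.050 with arrays centred on their medians, where the median of all genes was -0.047; with a clone left out it lay between -0.01 and 0. No member that passed limma under any setting changed direction. No paired analysis was possible because mock is 1 array and shares no more than 1 replicate number with the clones.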
